A study of Bos taurus with 6 samples.

Results

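The miR-10, miR-99/miR-100 and miR-125 miRNAs form a superfamily of related small RNAs. Its members were taken as every mature name numbered as miR-10, miR-99, miR-100 or miR-125, whatever its letter or arm, which gave 8 of the 755 mature names in the count files. These are bta-miR-10a and bta-miR-10b, then bta-miR-99a-5p, bta-miR-99a-3p, bta-miR-99b and bta-miR-100, and finally bta-miR-125a and bta-miR-125b. Granulosa cells, the somatic cells lining the follicle, came from synchronized Simmental heifers slaughtered on day 19 of the estrous cycle. There were 3 small RNA libraries from preovulatory dominant follicles, named D1 to D3 here after the replicate numbers of the labels, and 3 from anovulatory subordinate follicles, S1 to S3. No genetic change or treatment separated the groups, and all animals had received the prostaglandin and gonadotropin-releasing hormone analogues used for synchronization. Both kinds of follicle came from the same heifers, and the main tests took the groups as independent. RNA was pooled before library preparation, and many more subordinate than dominant follicles went into the pools. The p-values below therefore measure the spread between pools and not between animals.

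These miRNAs are old in animal evolution and are read from a few compact places in the genome. The miR-10 genes lie inside the HOX clusters, which hold the transcription factors of the body axis. The miR-99/miR-100 and miR-125 genes lie side by side with a let-7 gene, and in vertebrates such neighbours can be cut from a common primary transcript. Members of the miR-99/miR-100 group are known for targeting the growth kinase MTOR. The miR-125 group is the vertebrate counterpart of lin-4, the founding miRNA of the nematode. In the RefSeq gene table of the assembly ARS-UCD2.0, MIR10A lies within HOXB3 and MIR10B within HOXD4. The table places MIR99B, MIRLET7E and MIR125A next to each other in this order. MIR125B-2, MIRLET7C and MIR99A likewise follow each other within LOC132345457. MIRLET7A-2 lies between MIR125B-1 and MIR100, with bta-miR-125b thus encoded in both of these groups.

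With 1 value per mature name, the largest of its precursor rows, the libraries held between 190385 and 311842 reads in dominant and between 306932 and 364125 in subordinate follicles. Levels are given as CPM, reads scaled to a common library size with the TMM factors of edgeR and not corrected for miRNA length, and 3 reads were worth between 8.86 and 13.9 CPM. Library S3 stood apart from S1 and S2 for several members, and results that rest on it are given with and without it. In the alignment summary of the paper, D3 and S3 had the lowest proportions of mapped reads assigned to known miRNAs. Whether this bears on the values of S3 was not tested. The marker bta-miR-202 of gonadal somatic cells was present in all 6 libraries, at 11576 CPM or more, and higher in dominant follicles (log2 fold change 1.80). Among blood cell markers, bta-miR-451 and bta-miR-486 were high in D1 and D2. Their log2 fold changes were 3.00 and 2.45, higher in dominant follicles (adjusted p = 0.0414 and 0.0417, edgeR). Without D1, D2 or S3 these adjusted p-values lay between 0.119 and 0.157. The summed level of the list of 3 ran from 1048 to 13091 CPM in dominant and from 808 to 1530 CPM in subordinate follicles. Bta-miR-144 of that list had 0 reads in D3 and in S3 and no more than 5 in any other library.

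The superfamily took 16.5, 15.1 and 14.8% of all miRNA reads in D1, D2 and D3. It took 23.1, 25.7 and 30.0% in S1, S2 and S3. Every subordinate library thus exceeded every dominant library, and the mean share was 15.5 ± 0.90% in dominant and 26.3 ± 3.52% in subordinate follicles (SD, n = 3). The difference of -10.8 percentage points had p = 0.1 in a two-sided exact permutation test, the smallest p that 3 libraries against 3 allow, and an adjusted p of 0.133 over the 4 shares compared. It was -8.91 points without S3, and -7.34 points with all precursor rows in the denominator. By member, the difference in share was -7.67 points for bta-miR-10b and -2.22 points for bta-miR-99b. Without S3 these values were -7.68 and -0.998 points. In such bulk samples fewer cells of a type and less miRNA per cell cannot be told apart.

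**Figure D1:**
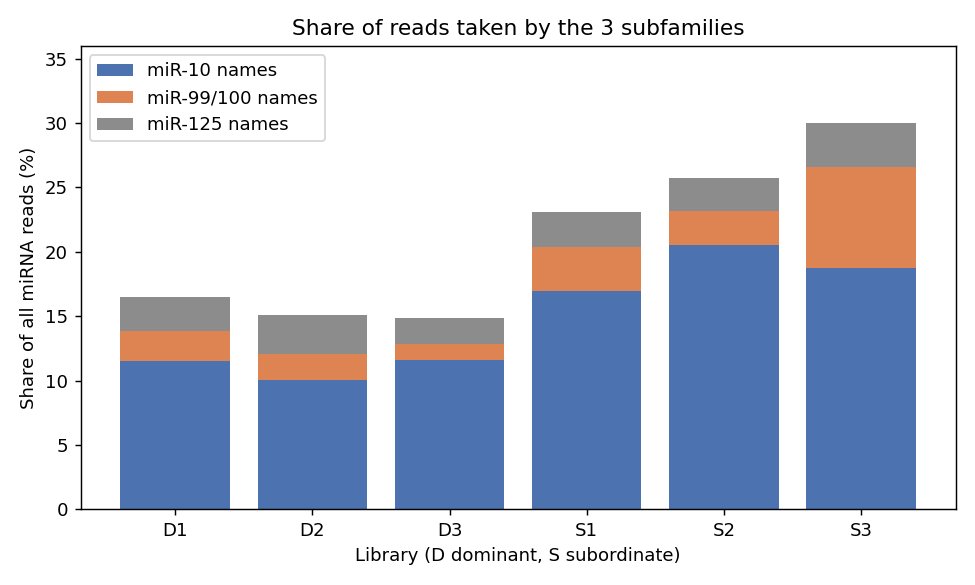
Share of all miRNA reads in percent (vertical axis) taken by the miR-10, miR-99/miR-100 and miR-125 names in each library (horizontal axis), as stacked bars from 0. The bars of the subordinate libraries end between 23.1 and 30.0% and those of the dominant libraries between 14.8 and 16.5%; the miR-99/miR-100 segment is tallest in S3.

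The subfamilies contributed unequally. The miR-10 names held 11.5, 10.03 and 11.6% of the reads in D1 to D3 and 16.9, 20.5 and 18.7% in S1 to S3. The miR-99/miR-100 names held 2.40, 2.03 and 1.27% against 3.47, 2.59 and 7.86%. Neither range overlapped between the follicle types (exact permutation test, p = 0.1 for each, adjusted p = 0.133). The difference in the miR-99/miR-100 share was -2.74 points, and -1.13 points without S3. The miR-125 names held 2.63, 3.03 and 1.96% in dominant and 2.67, 2.57 and 3.45% in subordinate follicles, and these ranges overlapped (exact permutation test, p = 0.5).

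In the quasi-likelihood test of edgeR over 353 detected miRNAs, 3 of the 8 members were called lower in dominant follicles and none higher. To be called, a miRNA needed a change of 1 or more on the log2 scale, an unadjusted p no greater than 0.05 and a false discovery rate (FDR) no greater than 0.1. Of all 353 miRNAs, 76 or 21.5% were called, 34 or 9.63% lower and 42 or 11.9% higher. The 3 called members were bta-miR-100, bta-miR-99a-5p and bta-miR-99b, which are all members of the miR-99/miR-100 subfamily other than the 3p arm. With the FDR alone, 5 of 8 members were lower, the added ones being bta-miR-10b and bta-miR-10a, against 14.2% of all miRNAs lower and 30.3% in either direction. In CPM with TMM factors the ranges of the groups did not overlap for 6 of 8 members, all lower in dominant follicles. Among all miRNAs this applied to 18.4% that were lower and to another 18.4% that were higher. Some of the gaps were narrow, and the count was not repeated with scaling by total count. The median log2 fold change was -0.85 over the members and -0.20 over all miRNAs. Scaling by total count alone moved the median of all miRNAs to -0.01 and the calls to 23 lower and 47 higher, with the same number of 3 members called. Without S3, 0 members were called and 4 passed the FDR, with 63 of 338 miRNAs called in all. Without D2, 0 members were called and 1 passed the FDR, with 58 of 343 miRNAs called in all.

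**Figure D2:**
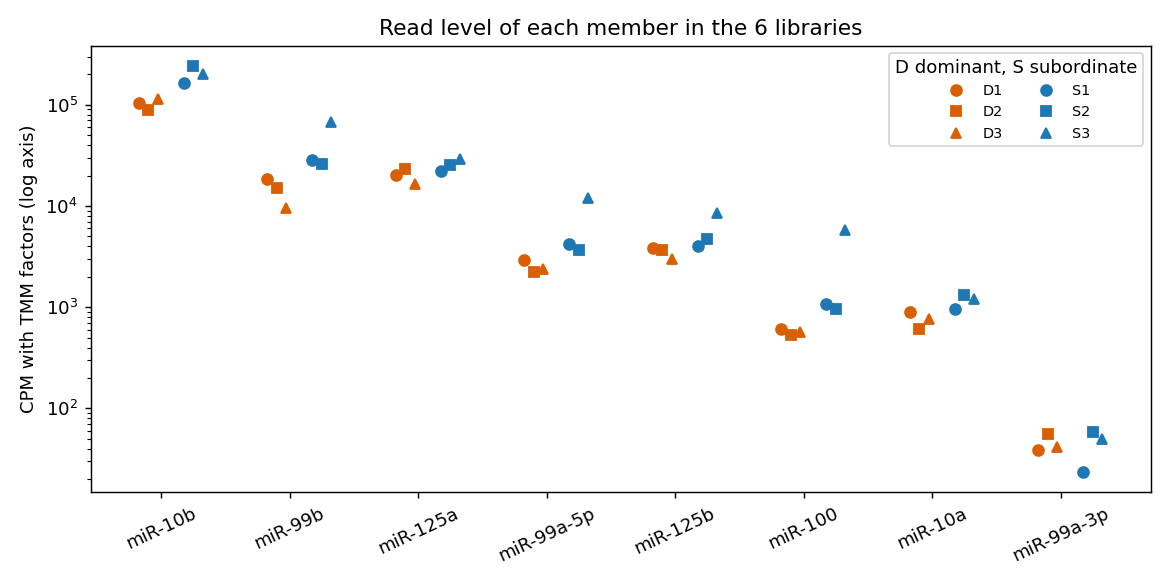
Level of each member (horizontal axis) in CPM with TMM factors on a log axis (vertical axis), 1 point per library, with dominant libraries in orange and subordinate in blue. For bta-miR-100, bta-miR-99a-5p and bta-miR-99b the S3 point lies well above S1 and S2, which themselves lie above the dominant points; bta-miR-125a and bta-miR-99a-3p overlap between groups.

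Bta-miR-10b was the most abundant member by far and ranked second among all miRNAs by mean reads in both follicle types. Its level was 104373, 87949 and 114526 CPM in D1 to D3. It was 164263, 240678 and 201629 CPM in S1 to S3. All subordinate libraries were thus above all dominant ones, and S3 lay between S1 and S2. Dominant follicles were 1.98-fold lower (log2 fold change -0.98, SE 0.17, adjusted p = 0.00425, edgeR). It passed the FDR but stayed just inside the fold limit, and it was called at -1.003 when the TMM factors were computed without the members and at -1.01 when precursor rows were summed. With a library left out, it was called without D3 (-1.07) or S1 (-1.11). It was not called without D1 (-0.997), D2 (-0.86), S2 (-0.84) or S3 (-0.99). The miRNA made up 70.9 ± 6.10% of the reads of the superfamily in dominant and 71.5 ± 8.86% in subordinate follicles (SD, n = 3).

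Bta-miR-10a, the HOXB counterpart of bta-miR-10b, was expressed at a small fraction of that level. It had 252, 132 and 238 reads in D1 to D3 and 327, 405 and 343 in S1 to S3. In CPM the dominant libraries held 889, 612 and 758 and the subordinate libraries 966, 1310 and 1210, so the ranges came close to each other without overlapping. In edgeR the difference was -0.62 on the log2 scale (SE 0.22, adjusted p = 0.078). It missed the FDR with scaling by total count (-0.41, adjusted p = 0.261), with the replicate number as a block (adjusted p = 0.113), with TMM factors computed without the members (0.112), with no filter on low counts (0.104), and without D2, D3, S2 or S3 (adjusted p of 0.215, 0.153, 0.196 and 0.116). The reads of bta-miR-10b were 117, 144 and 151 times those of bta-miR-10a in D1 to D3 and 170, 184 and 167 times in S1 to S3. This ratio was lower in every dominant library, by a log2 difference of -0.35 (exact permutation test, p = 0.1, adjusted p = 0.16 over 8 ratios).

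Bta-miR-99b was the most abundant of the miR-99/miR-100 group. It had 18455, 15075 and 9566 CPM in D1 to D3. It had 28574, 25769 and 67334 CPM in S1 to S3. D3 was the lowest and S3 the highest library, and the groups did not overlap. Dominant follicles were 2.82-fold lower (log2 fold change -1.50, SE 0.39, adjusted p = 0.0294, edgeR). It ranked 18 among all miRNAs by mean reads in dominant and 6 in subordinate follicles. Without S3 the change was -0.92 (adjusted p = 0.0525), so it passed the FDR and no longer the fold limit. Without D2 it was -1.50 with an adjusted p of 0.126.

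Bta-miR-99a-5p showed the same order of libraries within subordinate follicles at a lower level. It had 2915, 2226 and 2407 CPM in D1 to D3. It had 4176, 3704 and 11945 CPM in S1 to S3. The lowest subordinate library was above the highest dominant library, and S3 was 3.03 times the mean of S1 and S2. Dominant follicles were 2.63-fold lower (log2 fold change -1.39, SE 0.42, adjusted p = 0.0464, edgeR). Without S3 the change was -0.65 (adjusted p = 0.0436), past the FDR and within the fold limit. Leaving out D1, D2 or D3 gave -1.51, -1.29 and -1.38, with adjusted p-values of 0.117, 0.184 and 0.116.

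Bta-miR-100 had the largest fold change of the members. It had only 171, 115 and 177 reads in D1 to D3, and 363, 298 and 1641 reads in S1 to S3. In CPM the dominant libraries were close together, at 603, 533 and 564, while the subordinate libraries were at 1072, 964 and 5791. S3 was thus 10.2 times the dominant mean, and the mean of S1 and S2 was 1.80 times it. Dominant follicles were 4.60-fold lower (log2 fold change -2.20, SE 0.65, adjusted p = 0.042, edgeR). Without S3 the change was -0.84 (SE 0.17, adjusted p = 0.0141), or 1.79-fold lower. Its size thus rested on 1 library, although S1 and S2 were also above all dominant libraries. Leaving out D1 or D2 gave -2.25 and -2.15, with adjusted p-values of 0.128 and 0.168.

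**Figure D3:**
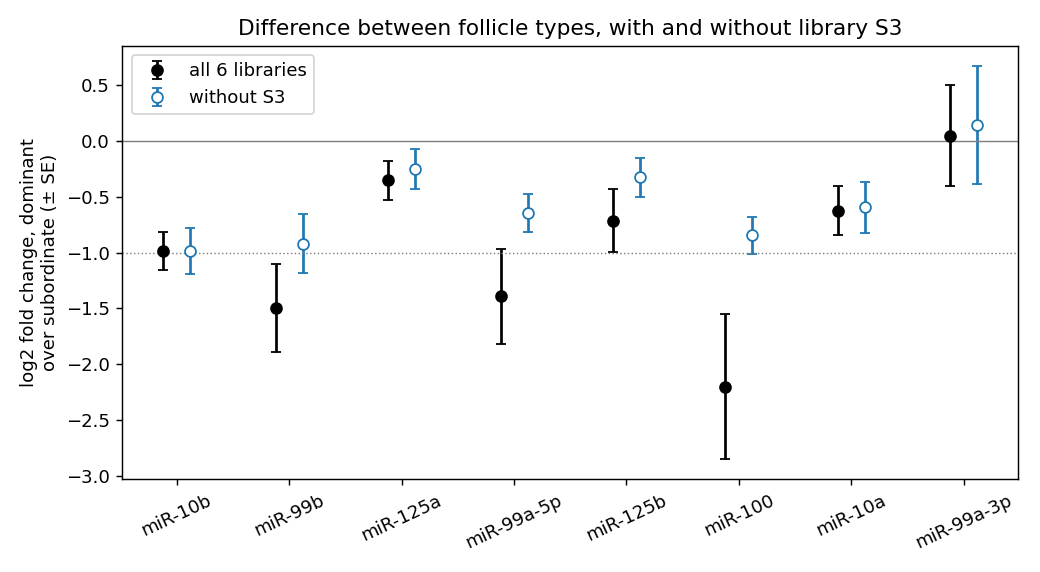
Log2 fold change of dominant over subordinate follicles (vertical axis, bars are ± 1 standard error) for each member (horizontal axis), from all 6 libraries (black) and without S3 (open blue); the dotted line marks the fold limit of -1. Without S3, bta-miR-100 moves from -2.20 to -0.84 and no point stays beyond the limit, while bta-miR-10b stays near -0.98.

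Bta-miR-99a-3p, the other arm of the bta-miR-99a hairpin, had few reads. There were 11, 12 and 13 in D1 to D3 and 8, 18 and 14 in S1 to S3. The groups overlapped, and S3 was not the highest library. It did not pass the test (log2 fold change 0.05, SE 0.45, adjusted p = 0.934, edgeR), and its sign turned when D2 or S1 was left out. The reads of the 5p arm were 75.1, 40.0 and 58.2 times those of the 3p arm in D1 to D3 and 177, 63.6 and 242 times in S1 to S3. These ratios overlapped between the groups (exact permutation test, p = 0.2).

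Bta-miR-125a was the second most abundant member in dominant follicles. It had 20184, 23150 and 16434 CPM in D1 to D3. It had 21965, 25465 and 28905 CPM in S1 to S3. D2 was above S1, so the groups overlapped. It did not pass the test (log2 fold change -0.35, SE 0.18, adjusted p = 0.2, edgeR), nor did it pass the FDR under any alternative tried.

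Bta-miR-125b had 3889, 3646 and 3019 CPM in D1 to D3. It had 4061, 4764 and 8483 CPM in S1 to S3. The dominant range ended just below the subordinate range, and S3 was 1.92 times the mean of S1 and S2. The change of -0.71 on the log2 scale (SE 0.28, adjusted p = 0.107, edgeR) missed the FDR, and without S3 it was -0.33 (adjusted p = 0.216). It passed the FDR, still within the fold limit, with no filter (adjusted p = 0.0791), with a filter of 10 reads in 3 libraries (0.0975), in DESeq2 (0.084) and without S1 (0.0676). This miRNA is listed under both of its precursors with nearly the same counts, for example 1375 and 1365 reads in S1, so the files do not tell how much came from each locus. Because bta-miR-99a-5p and bta-miR-100, as well as bta-miR-10a and bta-miR-10b and bta-miR-125a and bta-miR-125b, are close in sequence, reads of one could be counted on the other. Added up, bta-miR-99a-5p and bta-miR-100 had a log2 fold change of -1.58 (adjusted p = 0.0431 from edgeR), bta-miR-10a and bta-miR-10b of -0.98 (adjusted p = 0.00408) and bta-miR-125a and bta-miR-125b of -0.41 (adjusted p = 0.156).

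The let-7 miRNAs encoded beside these members did not pass the test with TMM factors. Of the 4 names bta-let-7a-5p, bta-let-7a-3p, bta-let-7c and bta-let-7e, 0 were called and 0 passed the FDR or an unadjusted p of 0.05 in edgeR, with a median log2 fold change of 0.12. Scaled by total count, bta-let-7a-5p passed the FDR, higher in dominant follicles by 0.36 on the log2 scale (adjusted p = 0.0831, edgeR). Counts are per mature name, so they do not show how much of bta-let-7a-5p came from MIRLET7A-2. Bta-let-7e, encoded between bta-miR-99b and bta-miR-125a, had 3874, 3261 and 3226 CPM in D1 to D3 and 3133, 3357 and 3201 CPM in S1 to S3. Its groups overlapped, with a log2 fold change of 0.10 (SE 0.16). Bta-let-7c, the neighbour of bta-miR-99a, ran from 4818 to 5854 CPM in dominant and from 4633 to 5138 CPM in subordinate follicles.

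Ratios within a library need no normalization and no length correction when the same ratio is compared between libraries. The reads of bta-miR-99b were 0.914, 0.651 and 0.582 times those of bta-miR-125a in D1 to D3, and 1.30, 1.01 and 2.33 times in S1 to S3. By reads, bta-miR-125a was thus ahead in every dominant library and bta-miR-99b in every subordinate library, in S2 by only 1.01 times. Both genes lie in the same group. What is compared here is the ratio between libraries, and not the amounts of the 2 miRNAs in a cell. The mean log2 ratio was -0.51 ± 0.34 in dominant and 0.54 ± 0.62 in subordinate follicles (SD, n = 3; exact permutation test, p = 0.1, adjusted p = 0.16 over 8 ratios). Against bta-let-7e, bta-miR-99b was at 4.76, 4.62 and 2.97 times its reads in D1 to D3 and at 9.12, 7.68 and 21.0 times in S1 to S3. Bta-miR-125a was at 5.21, 7.10 and 5.09 against 7.01, 7.58 and 9.03 times the reads of bta-let-7e, and here the groups overlapped (exact permutation test, p = 0.2).

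In the other gene groups, not every ratio separated the follicle types. Bta-miR-125b is encoded in both of these groups, so its ratios do not refer to a single locus. Bta-miR-99a-5p had 0.498, 0.405 and 0.4997 times the reads of bta-let-7c in D1 to D3 and 0.901, 0.770 and 2.32 times in S1 to S3. Bta-miR-100 had 0.155, 0.146 and 0.187 times the reads of bta-miR-125b in dominant and 0.264, 0.202 and 0.683 times in subordinate follicles. Neither ratio overlapped between the groups, with log2 differences of -1.33 and -1.03 (exact permutation test, p = 0.1 and adjusted p = 0.16 for each). The ratio of bta-miR-99a-5p to bta-miR-125b overlapped (log2 difference -0.54, exact permutation test, p = 0.2). In all, 5 of the 8 ratios tested did not overlap. These ratios share miRNAs and are not independent, and the share over other pairs of miRNAs was not computed. Apart from bta-miR-10b to bta-miR-10a, each of the 5 set a called member over a miRNA that was not called. Without S3 the log2 differences of the ratios bta-miR-99b to bta-miR-125a, bta-miR-99a-5p to bta-let-7c and bta-miR-100 to bta-miR-125b were -0.71, -0.84 and -0.51.

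**Figure D4:**
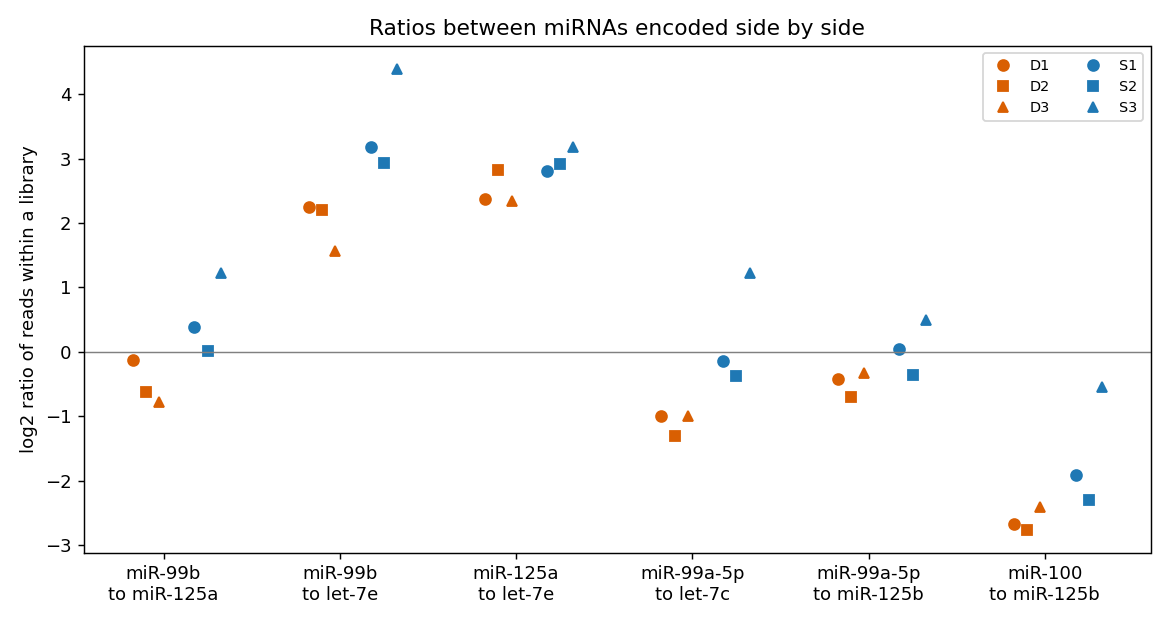
Log2 ratio of reads within each library (vertical axis) for 6 combinations of miRNAs whose genes lie side by side (horizontal axis), 1 point per library, dominant in orange and subordinate in blue. Ratios with bta-miR-99b over bta-miR-125a lie below 0 in the dominant and above 0 in the subordinate libraries, and S3 is the highest point in all 6 combinations.

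Among the 8 members, the subordinate libraries differed most from each other in the miR-99/miR-100 group. The SD of log2 CPM over S1 to S3 was 1.45 for bta-miR-100, 0.93 for bta-miR-99a-5p, 0.76 for bta-miR-99b, 0.63 for bta-miR-99a-3p and 0.56 for bta-miR-125b. For bta-miR-10a, bta-miR-10b and bta-miR-125a it was 0.23, 0.28 and 0.20. The median over the 194 miRNAs averaging 10 or more reads was 0.29, so the first 5 members lay above it and the last 3 below it. For bta-miR-99a-3p the highest library was S2, and its spread comes with 8 to 18 reads a library. Over D1 to D3 the SD was 0.09 for bta-miR-100 and 0.20 for bta-miR-99a-5p, and it was largest for bta-miR-99b, at 0.49. By this SD, bta-miR-100, bta-miR-99a-5p, bta-miR-99b and bta-miR-99a-3p ranked 3, 14, 22 and 31 among the 194 miRNAs. The median SD of the members in subordinate follicles was 0.60, and it was 0.38 without S1, 0.72 without S2 and 0.16 without S3.

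S3 was at least 2 times as high as both S1 and S2 for 3 of the 8 members, namely bta-miR-100 (5.40 times the higher of them), bta-miR-99a-5p (2.86 times) and bta-miR-99b (2.36 times). Among the 194 miRNAs averaging 10 or more reads this applied to 16 or 8.25%. This limit of 2 was chosen after the values were seen. The markers of stroma and smooth muscle, summed over 5 names, ran from 17603 to 27823 CPM in dominant and from 21064 to 35751 CPM in subordinate follicles, with S2 the highest library. Bta-miR-143 held most of this sum, and it and bta-miR-145 were highest in S2. The other 3 names were highest in S3, with bta-miR-199a-5p at 511, 592 and 1532 CPM, bta-miR-199a-3p at 883, 993 and 1440 CPM and bta-miR-214 at 103, 97.0 and 155 CPM in S1 to S3. Bta-miR-214 was called lower in dominant follicles (log2 fold change -1.20, adjusted p = 0.0417 from edgeR). It was not called by total count (-0.99, adjusted p = 0.107), without D1 (-1.12, adjusted p = 0.128) or without S3 (-0.96, adjusted p = 0.108). The 2 arms of bta-miR-126, markers of endothelium, summed to between 73.2 and 293 CPM in dominant and between 354 and 540 CPM in subordinate follicles, again with S3 the highest. The part of other cell types in these results was not tested.

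Over the 6 libraries, the miRNAs most alike to the 3 called members in their profile of log2 CPM were bta-miR-1271, bta-miR-199b, bta-miR-199a-5p, bta-miR-27b and bta-miR-2285k, out of 186 other miRNAs averaging 10 or more reads. Their Pearson correlations with the mean standardized profile ran from 0.93 to 0.995, a description over libraries that share their grouping and the high S3. Bta-miR-1271 had 212, 176 and 169 CPM in D1 to D3 and 502, 456 and 2498 CPM in S1 to S3, with the same order of subordinate libraries as bta-miR-100.

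HOX-locus miRNAs other than miR-10 were close to absent. Bta-miR-196a had 0, 1 and 0 reads in D1 to D3 and 5, 6 and 0 in S1 to S3 (adjusted p = 0.183 from edgeR), and it was thus without a read in S3. Without S3 it was called lower in dominant follicles (adjusted p = 0.0544 from edgeR), on these few reads. Bta-miR-615 had 1 read in S1 and bta-miR-196b had 0 reads in all libraries. At this depth such counts do not show absence.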

How the data were processed

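Small RNA of granulosa cells was sequenced in 3 libraries each of preovulatory dominant and subordinate follicles. The deposited values are raw read counts. The authors trimmed the reads with Cutadapt and Seqtk, mapped them to the bovine genome (build UMD3.1 per the labels) with Bowtie and counted them on known miRBase miRNAs with miRDeep2. The mismatch setting of the counting is not given in the sources used here. Each file has 906 rows for 755 mature names, and the largest precursor row of a name was used. The CPM value of 3 reads, given as a floor, covers counting error only.

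Counts were tested with edgeR 4.0.16 in R 4.3.3 (TMM, quasi-likelihood, Benjamini-Hochberg) over miRNAs detected with 1 read or more in 2 or more libraries of either group. edgeR gives no standard error, so the standard error (SE) printed is the size of the log2 difference over the root of its F statistic. Log2 CPM used a prior count of 1 and ratios a pseudocount of 1. Shares and ratios were compared by two-sided exact permutation tests (scipy 1.17.1). The script was tested on simulated data. The named miRNAs are the members, their let-7 neighbours, HOX-locus miRNAs, cell type markers and the 5 most alike profiles. Members and lists were chosen with earlier results of these data known. Alternatives included DESeq2 1.42.0, other scalings and filters, a replicate block and each replicate left out. Gene neighbours came from a RefSeq table of another assembly, so no coordinates are given.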

Additional observations from a re-analysis of the deposited data

How the results depend on the processing

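The number of members called was 3 and stayed between 3 and 4 under the 8 other settings of scaling, filter, precursor rows, replicate block and DESeq2, and it was 2 of 5 features with near-identical members added up. Leaving out 1 library gave between 0 and 4 called members, with 0 without D2 (where only bta-miR-10b passed the FDR) or S3 and 1 without D1. Members passing the FDR numbered 5, between 4 and 6 under these 8 settings, 3 after adding up near-identical members, and between 1 and 6 with 1 library left out. The calls over all miRNAs ranged from 54 to 78. The 3 miR-99/miR-100 members passed the FDR under every setting that kept all libraries and without S3. Directions changed for miRNAs that were never called: bta-miR-99a-3p had a log2 fold change of -0.09 without D2 and -0.26 without S1 (up to 0.31 without S2), and bta-let-7a-3p had 0.12 by total count, 0.09 without S1 and 0.13 without S2 (down to -0.41 without S3). The differences in share and in ratio kept their sign under every alternative tried, from -15.1 points for the superfamily with bta-miR-26a left out of the denominator to -7.34 points with all precursor rows in it. The difference in the miR-125 share was -0.36 points, and -0.07 without D3 or -0.08 without S3.

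The labels give both groups the same replicate numbers. Same-numbered libraries deviated together with correlations of 0.14, 0.38 and 0.41 over the 194 miRNAs averaging 10 or more reads, but of 0.01, 0.11 and 0.27 over all 353, and S1 correlated best with D2. The check thus depends on the miRNAs used. Both follicle types came from the same heifers, but no source ties a number to an animal or day, and the numbers were not taken as pairs. With the replicate block, 3 members were called and 4 passed the FDR, since bta-miR-10a had an adjusted p of 0.113 in edgeR. The log2 fold change of bta-miR-100 was -1.66, and 71 miRNAs were called in all.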

Other observations

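The miRNAs that were at least 2 times as high in S3 as in both other subordinate libraries, apart from the members, were counted after the values were seen. Bta-miR-96 met the limit with 1 read in S3 and 0 reads in S1 and S2, so no ratio is given for it, and it had 34, 19 and 24 reads in D1 to D3. The others included bta-miR-1246 (9.46 times the higher of S1 and S2), bta-miR-2487 (6.55 times), bta-miR-212 (6.00 times), bta-miR-1271 (4.98 times) and bta-miR-199b (4.36 times). Bta-miR-2487 had only 1, 2 and 12 reads in S1 to S3, and bta-miR-212 had 1, 2 and 11. Bta-miR-1246 was also high in D3 relative to D1 and D2, with 164, 195 and 2555 reads in D1 to D3. So were bta-miR-2487, bta-miR-2885, bta-miR-2411-3p, bta-miR-2332 and bta-miR-2424. Bta-miR-1271, bta-miR-199b and the 3 called members did not stand out in D3 relative to D1 and D2. Nor did bta-miR-212, but its 147, 62 and 140 reads in D1 to D3 were all far above those in S1 to S3. Bta-miR-127, known from an imprinted locus, was at 2.02 times. No let-7, miR-10 or miR-125 name was among the 16.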
